A study of Mus musculus with 12 samples.

Results

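hnRNP H is a nuclear RNA-binding protein, and its crosslinked RNA (CLIP-seq) was set against the RNA level of the same tissue (RNA-seq), gene by gene, in mouse striatum after saline. The genes described are those in both tables with at least 10 CLIP reads in each of the 3 saline CLIP libraries, after each peak position was counted once and its reads were summed per gene. They number 4408 of the 13202 genes in both tables (33.4%) and of 18208 genes in the RNA-seq table, and 4405 of them are annotated as protein-coding. All mice were wild-type C57BL/6J animals bred from C57BL/6J mothers and fathers heterozygous for an Hnrnph1 mutation, aged postnatal day 50 to 100. After 2 days with a saline injection each, the mice were injected on day 3 with saline or with methamphetamine at 2 mg/kg, and whole striata were taken 30 min later. Each pool held the striata of 4 mice, 2 of each sex, and gave 1 CLIP and 1 RNA-seq library. The tissue for RNA-seq was set aside before crosslinking, so libraries of the same number share a pool. The CLIP antibody was against hnRNP H, and RNA was recovered from the membrane between 50 and 75 kDa. The series compares 12 libraries, 3 per treatment and assay, and the values below are from the 3 saline pools unless methamphetamine is named.

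hnRNP H belongs to a small family (hnRNP H1, H2, H3 and hnRNP F) whose RNA-recognition motifs hold runs of guanines in RNA. Such runs near splice sites and polyadenylation signals are where the family is known to promote or repress the use of an exon or a poly(A) site. The proteins work largely on pre-mRNA in the nucleus, so CLIP reads can come from introns as well as exons.

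The level of a gene is given as log2 CPM, the log2 of its reads scaled to a fixed library total, and is not corrected for gene length. Each library was centred on its median over the 4408 genes, and the difference reported is centred CLIP minus centred RNA on the log2 scale, so a value of 1 means a doubling of CLIP relative to RNA when set against the typical gene. A gene was called higher or lower when limma gave an adjusted p-value under 0.05 over all 13202 genes. The choice of genes sets a limit on this comparison. In saline replicates 1, 2 and 3, 10 CLIP reads stood for a centred level of -2.75, -1.44 and -3.45, and 1222 genes had an RNA level below that in at least 1 pool. Those genes could enter only with CLIP above RNA there, and they are called held above RNA by the filter. In the other genes the filter still limits how far CLIP could lie below RNA, most of all where RNA is low.

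The 3 saline CLIP libraries held 1053269, 423057 and 1635338 reads in peak positions, of which 72.1% to 72.4% fell in the 4408 genes. The RNA-seq libraries held 3935160 to 4698135 reads, of which 58.2% to 59.5% fell in these genes. Saline replicate 2 had the fewest CLIP reads and stood apart: its CLIP levels correlated across genes with those of replicates 1 and 3 at r = 0.759 and 0.754, against 0.935 between replicates 1 and 3. Markers of the labelled tissue were present: the striatal genes Ppp1r1b, Penk, Adora2a and Drd2 had at least 1262 RNA reads in every library. Summed RNA levels of 10 neuron markers were 4624 to 5359 CPM, of 12 astrocyte markers 3185 to 4286 CPM, and of 12 oligodendrocyte markers 5251 to 12754 CPM, highest in replicate 3. Microglia markers summed to 375 to 459 CPM, endothelial markers to 106 to 205 CPM, cortical excitatory neuron markers to 1248 to 1559 CPM and choroid plexus markers to 146 to 279 CPM. No marker list had a gene at 0 reads except the choroid plexus list, with 1 of 12 at 0 in replicate 2 and 2 of 12 in replicate 3. In bulk tissue, fewer cells of a type and less RNA per cell cannot be told apart.

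CLIP positions that lie within 1 exon outside the untranslated regions show what was recovered as sequence, and 10 are printed. They come from genes with CLIP higher than RNA and from genes with CLIP lower, were chosen after their values were seen, and were read from GENCODE M21 transcripts (GRCm38), 5′ to 3′ on the RNA strand. Each is the position with the most saline CLIP reads in its gene, and capitals mark runs of 3 or more guanines. Most positions lie in introns, whose sequence was not read here. The first 5, from genes with CLIP higher, lie at chr10:74645843-74645942 (Pcdh15, plus strand, coding), chr16:94268183-94268282 (Hlcs, minus, coding), chr14:120478745-120478844 (Rap2a, plus, coding), chr5:139050707-139050806 (Prkar1b, minus, coding) and chr11:50382191-50382290 (Hnrnph1, plus, exon outside coding and UTR annotation).
Pcdh15: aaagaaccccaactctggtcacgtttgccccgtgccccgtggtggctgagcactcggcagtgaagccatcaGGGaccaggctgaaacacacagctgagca
Hlcs: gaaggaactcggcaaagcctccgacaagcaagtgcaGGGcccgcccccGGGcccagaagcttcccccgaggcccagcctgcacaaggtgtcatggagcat
Rap2a: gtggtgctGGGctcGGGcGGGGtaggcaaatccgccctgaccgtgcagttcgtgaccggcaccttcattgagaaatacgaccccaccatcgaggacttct
Prkar1b: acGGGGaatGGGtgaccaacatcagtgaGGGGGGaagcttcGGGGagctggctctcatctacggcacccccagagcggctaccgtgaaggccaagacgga
Hnrnph1: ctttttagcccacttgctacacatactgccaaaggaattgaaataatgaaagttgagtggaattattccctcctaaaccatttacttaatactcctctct
The next 5, from genes with CLIP lower, lie at chr4:4134032-4134131 (Penk, minus, coding), chr10:128085474-128085573 (Atp5b, plus, coding), chr2:131178483-131178582 (Cenpb, minus, coding), chr10:119211856-119211955 (Cand1, minus, coding) and chr12:110618453-110618552 (Dync1h1, plus, coding).
Penk: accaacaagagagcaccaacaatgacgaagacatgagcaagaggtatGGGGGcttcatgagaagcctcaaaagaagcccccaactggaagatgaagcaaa
Atp5b: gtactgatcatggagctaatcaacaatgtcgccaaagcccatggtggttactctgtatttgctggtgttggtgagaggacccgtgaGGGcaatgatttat
Cenpb: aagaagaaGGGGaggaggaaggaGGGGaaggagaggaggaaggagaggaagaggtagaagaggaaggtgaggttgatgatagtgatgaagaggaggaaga
Cand1: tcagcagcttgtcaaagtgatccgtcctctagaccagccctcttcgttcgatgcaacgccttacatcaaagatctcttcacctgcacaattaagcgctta
Dync1h1: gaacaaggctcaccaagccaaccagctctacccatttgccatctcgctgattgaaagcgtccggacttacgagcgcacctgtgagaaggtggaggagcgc
The longest guanine run was 6 bases in Prkar1b and 5 in Penk, and no run of 3 or more was present in Hnrnph1, Cand1 or Dync1h1. Among the 10 printed, runs were found in genes on both sides and were missing from genes on both sides. The chosen positions that are not printed, in Mapk6 (CLIP higher) and Eif3f, Ip6k1, Nlgn3 and Scn2a (CLIP lower), each held at least 1 run of 3 or more. The printed set therefore overstates how often runs are missing.

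Over all exon positions with at least 10 saline reads (3736 positions of 1757 genes), 80.8% held the letters GGG, 50.9% held GGGG and 26.3% held GGGGG, searched on the RNA strand, where each longer run also counts as a shorter one. Of 220346 adjoining 100-base windows cut from the longest transcripts of the 4408 genes, 66.1%, 25.9% and 7.13% did. The share with GGGG was close across the calls: 50.3% of 780 positions in genes with CLIP higher, 54.2% of 1052 in genes not called and 49.4% of 1904 in genes with CLIP lower, against 23.5%, 25.2% and 28.9% of their own windows. For each call and each run length, the share was higher in positions than in windows. These shares are descriptions without a test, because positions of 1 gene are not independent.

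Among the 4408 genes, which were chosen by a minimum on CLIP itself, the amount of hnRNP H CLIP said little about the amount of RNA. Pearson's r between CLIP and RNA log2 CPM was 0.116 (Spearman's rho 0.132), and it was 0.088, 0.109 and 0.128 in pools 1, 2 and 3. The value of r moved with the minimum: it was 0.182 with 5 CLIP reads per library and 0.018 with 30. Whether a gene reached the minimum also rose with RNA level, as described below. The low r is therefore not read as a result for genes in general, and r without a minimum is not given. The points share the libraries and their depth and are genes, not replicates, so no p is given. Among the 3186 genes not held above RNA by the filter r was 0.198, and without the 1% of positions with the most reads it was 0.297 over 3909 genes. RNA levels were the more spread out, with an SD across genes of 2.58 on the log2 scale against 1.44 for CLIP. The difference had an SD of 2.81 across genes, while the median gene's SD over the 3 pools was 0.53. Its 10th and 90th percentiles were -2.64 and 4.44. Differences of one pool tracked those of another across genes (r = 0.906, 0.965 and 0.898 for pools 1 and 2, 1 and 3, and 2 and 3). In 7 genes no RNA read was counted in any library, so their differences are lower bounds and are not quoted.

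**Figure D1:**
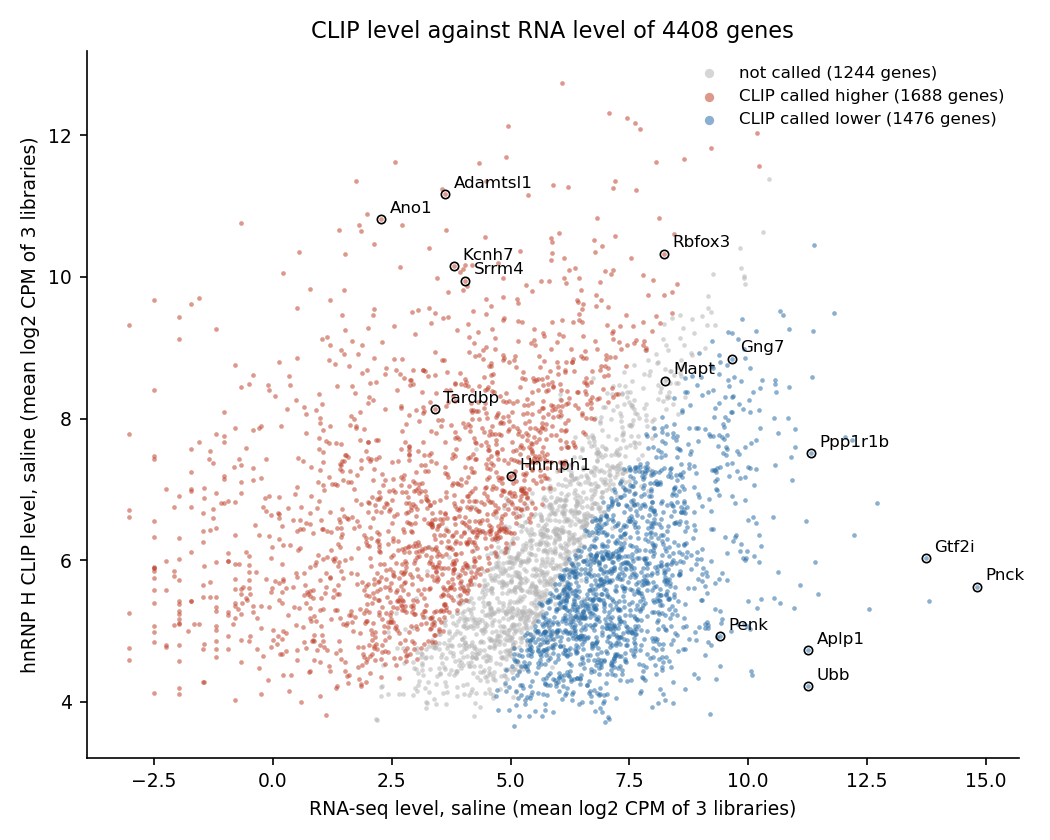
Each point is 1 of 4408 genes, with its mean RNA-seq level on the horizontal axis and its mean hnRNP H CLIP level on the vertical axis (both log2 CPM, 3 saline libraries each), coloured by call, with 15 genes named. The cloud is broad and nearly flat (r = 0.116), from Ano1 and Adamtsl1 at upper left to Pnck and Gtf2i at far right. Genes below the CLIP minimum are not shown, and r depends on that minimum.

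CLIP was called higher than RNA in 1688 genes and lower in 1476. These are 38.3% and 33.5% of the genes described, and over all genes in both tables the shares called were 18.8% higher and 50.3% lower. Of the 1688, 1069 were held above RNA by the filter, so the higher count is not read as a result. Among the 3186 genes not held above RNA, 619 (19.4%) were called higher and 1476 (46.3%) lower. Without saline replicate 2, 1767 genes were called higher and 1616 lower. The split rests on the centring: with log2 CPM as they stand the median difference moved from 0.12 to 0.61 and the counts to 1964 higher and 1128 lower, and with TMM scaling to 1.01 and to 2241 and 864. Which side of 0 a gene with a small difference falls on is therefore set by the scale, and the results below concern genes or groups far from the typical gene unless stated.

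The methamphetamine pools, whose libraries played no part in choosing the genes or in the calls, were set beside the saline pools. Across the 4408 genes the mean difference after methamphetamine correlated with that after saline at r = 0.975. All 3 methamphetamine pools lay above 0 in 1565 of the 1688 genes called higher (92.7%). The same held in 561 of the 619 higher genes not held above RNA by the filter (90.6%). All 3 methamphetamine pools lay below 0 in 1335 of the 1476 genes called lower (90.4%). No effect of treatment was tested here.

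Genes with CLIP higher and genes with CLIP lower differed in how the CLIP reads were laid out. In genes called higher the median number of positions with reads was 3, and the largest position held a median of 80.1% of a gene's reads. For genes called lower the medians were 19 positions and 25.5%, and for genes not called 11 positions and 44.3%. A single position held over 50% of the reads in 1279 of 1688 genes called higher (75.8%) and in 277 of 1476 called lower (18.8%). With genes held above RNA by the filter left out, the 619 higher genes still had a median top position of 61.1% and a median of 8 positions. Introns took a mean of 79.4% of a gene's CLIP reads in genes called higher and 67.6% in genes called lower, and 3′ UTRs took 6.25% and 15.9%. All reads lay in introns in 61.5% of the higher genes and in 8.81% of the lower ones. Of all positions in the genes described, 85.9% lay in introns, so a gene with few positions more easily has all its reads there. The all-intron shares therefore cannot be told apart from the number of positions and are not read as a difference in region. The layout values given here come from the same CLIP reads that enter the difference, so they are given as descriptions.

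**Figure D2:**
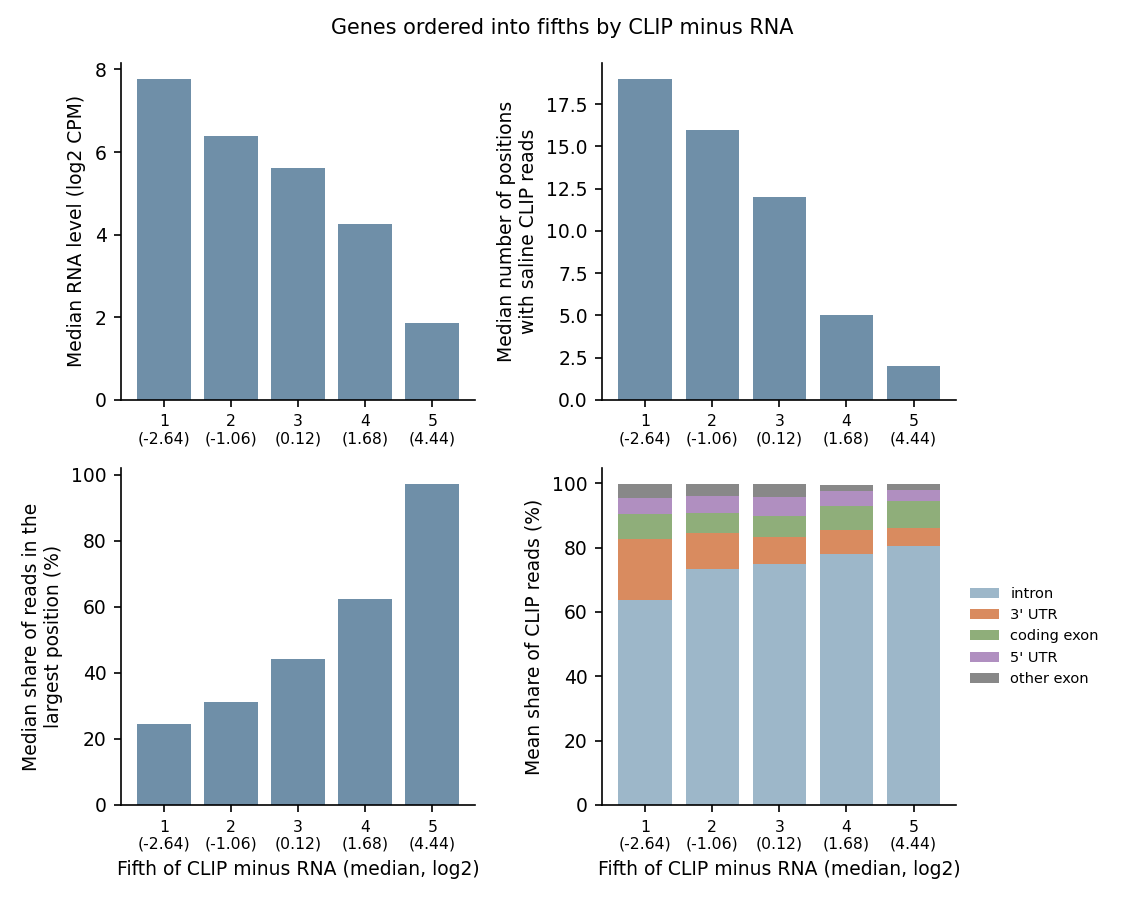
The 4408 genes were ordered by CLIP minus RNA into 5 equal groups, from lowest (1) to highest (5), with the median difference in brackets. Bars give the median RNA level (log2 CPM), the median number of positions with saline CLIP reads, the median share of reads in the largest position (%) and the mean share of CLIP reads per region (%). From group 1 to group 5 the median number of positions went from 19 to 2, the top position's share from 24.4% to 97.3%, and the 3′ UTR share from 18.9% to 5.34%.

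Long genes had more CLIP for their RNA than short genes. Among the genes not held above RNA by the filter, the 1062 longest (107.6 kb of genomic length or more) had a median difference of -0.05, with 31.4% called higher and 31.0% lower. The 1062 of middle length had a median of -0.83. In the 1062 shortest (34.2 kb or less) the median was -1.29, with 11.3% called higher and 60.1% lower. The order was the same in each pool: the medians of long genes were 0.08, -0.08 and -0.07 and those of short genes -1.52, -1.02 and -1.42 in pools 1, 2 and 3. It also held at matched RNA level. RNA level is itself part of the difference, so medians are compared within bands of it. Within 4 such bands, Spearman's rho between the difference and genomic length was 0.32, 0.38, 0.40 and 0.42 from the lowest band to the highest. With the trend on length removed, 1476 of the 4408 genes were called higher and 1640 lower.

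**Figure D3:**
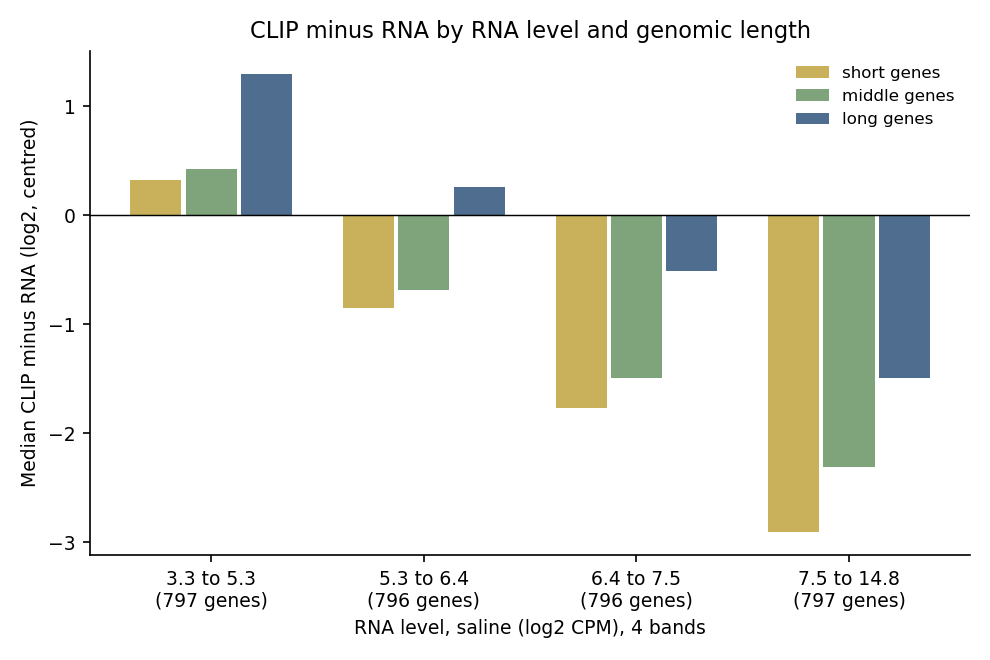
Bars give the median CLIP minus RNA (log2) of short, middle and long genes within 4 bands of RNA level (log2 CPM), for the 3186 genes not held above RNA by the filter. In each band the long genes stand highest, and medians fall with RNA level, from 1.30 for long genes of the lowest band to -2.91 for short genes of the highest.

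Genes with the most CLIP for their RNA over several positions were mostly long genes with little RNA. By a rule on size (at least 3 positions, none with over 50% of the reads, at least 10 RNA reads per library), the 10 highest were Adamtsl1, Spaca6, Lpp, St6galnac3, Nrg1, Qtrt2, Mcph1, Nckap5, Arl15 and Runx1, and all 10 were held above RNA by the filter. Adamtsl1, a secreted protein of the extracellular matrix encoded over 914 kb of chromosome 4, had 2522, 924 and 3762 CLIP reads against 31, 65 and 61 RNA reads, all in introns. Its difference was 7.60, 6.88 and 6.67 in the 3 pools, a mean of 7.05 ± 0.27 (SE), given as a description because of the filter. Nrg1, a ligand of ErbB receptors, spans 1069 kb of chromosome 8 and had 1711, 360 and 1585 CLIP reads over 38 intronic positions against 54, 85 and 58 RNA reads, a difference of 5.63 ± 0.30. Spaca6, a sperm protein needed for fertilisation, is only 15.9 kb long and had 489, 104 and 690 CLIP reads over 17 positions against 16, 21 and 17 RNA reads, a difference of 5.85 ± 0.33. Inside Spaca6 lie 3 miRNA genes on the same strand, and CLIP reads of their transcripts cannot be told apart from its own. In all, 6 of the 10 are overlapped by another annotated gene on the same strand. The other 7 had means from 4.51 (Arl15 and Runx1) to 5.80 (Lpp). In Runx1, a transcription factor of blood formation, pool 2 stood apart at 6.22 against 3.82 and 3.48. All 10 lay above 0 in all 3 methamphetamine pools, the lowest at 2.29 in Nckap5.

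Where 1 position held over 50% of the reads, differences were larger still. The 5 highest were Bloc1s5 (8.57), Atp8b1 (8.42), Dpf3 (8.31), Ano1 (8.04) and Gipc2 (7.84). Ano1, a calcium-activated chloride channel, had 1890, 692 and 3217 CLIP reads, all at 1 intronic position on chromosome 7, against 17, 20 and 21 RNA reads. Bloc1s5, a subunit of a complex that builds lysosome-related organelles, had 3637, 1155 and 5400 CLIP reads, 89.8% of them at a position in its 3′ UTR, against 16, 41 and 20 RNA reads. These genes also could enter only with CLIP above RNA. What the reads at such single positions come from was not tested.

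**Figure D4:**
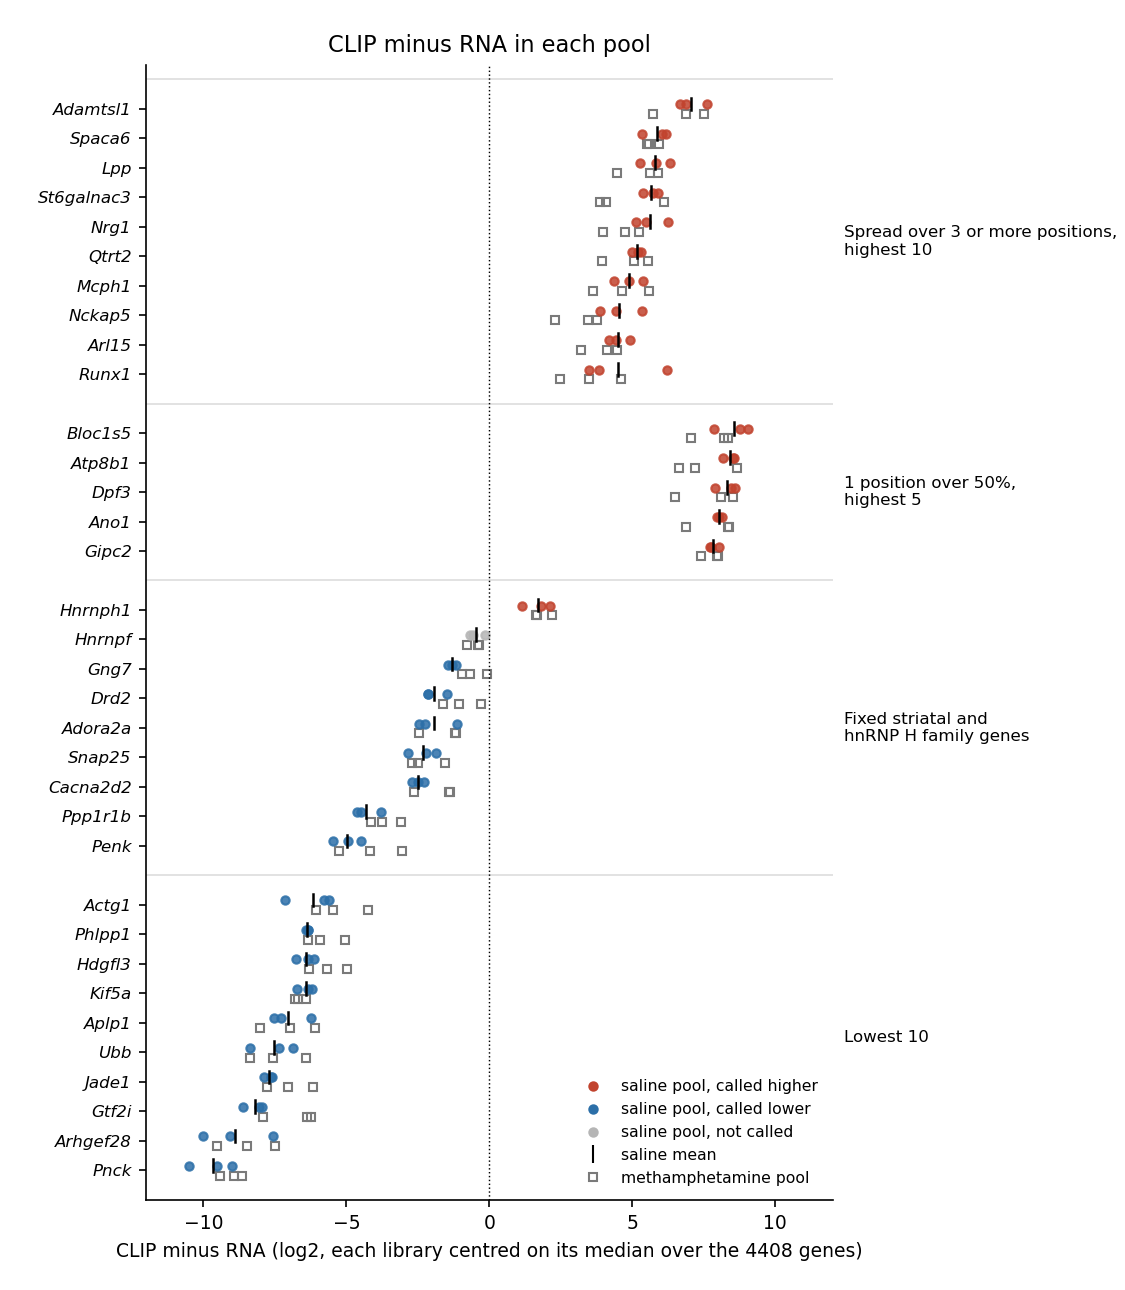
CLIP minus RNA (log2, centred) is shown for named genes in each of the 3 saline pools (filled circles, coloured by call), their mean (black line) and the 3 methamphetamine pools (open squares). In the groups of highest and lowest genes every pool lies on the same side of 0, from -10.49 to 9.06 among saline pools, and Hnrnpf is the 1 fixed gene shown that was not called.

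Genes called higher, not held above RNA by the filter and with CLIP spread over several positions numbered 239. They were picked out after their values were seen. Some lie close to the filter's limit, where a gene could hardly enter with CLIP below RNA. Tardbp had a centred RNA level of -1.40 in pool 2, against -1.44 for 10 CLIP reads. The differences are therefore given as descriptions. The highest was Ankfy1, an effector of the endosomal GTPase Rab5, with 1313, 255 and 1283 intronic CLIP reads over 24 positions against 92, 180 and 94 RNA reads and a difference of 4.39 ± 0.32. Next came 2 genes of RNA-binding proteins. Taf15 had 484, 84 and 694 CLIP reads, 97.9% of them in coding exon positions, and a difference of 4.27 ± 0.44. Tardbp, which encodes TDP-43, had 261, 113 and 539, all in its 3′ UTR, and a difference of 4.23 ± 0.40. Dlgap2, a postsynaptic scaffold protein of a 752 kb gene, had 6082, 1535 and 7694 CLIP reads over 44 intronic positions against 762, 682 and 972 RNA reads, a difference of 4.07 ± 0.28. Asic2, an acid-sensing ion channel, stood at 4.07 ± 0.28, and Dhx9, an RNA helicase with 96.4% of its CLIP reads in coding exon positions, at 4.02 ± 0.47. Over these 6 genes the lowest value in any saline or methamphetamine pool was 2.82, for Asic2 in a methamphetamine pool.

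The lowest genes were abundant in the RNA-seq table, and RNA level is itself part of the difference. They were taken from called genes with all 3 saline pools on the same side of 0. The 10 lowest were Pnck (-9.67), Arhgef28 (-8.88), Gtf2i (-8.21), Jade1 (-7.71), Ubb (-7.52), Aplp1 (-7.03), Kif5a (-6.43), Hdgfl3 (-6.40), Phlpp1 (-6.37) and Actg1 (-6.18). Pnck, a calcium/calmodulin-dependent kinase on chromosome X, had 33, 27 and 95 CLIP reads against 116670, 118289 and 116286 RNA reads, a difference of -9.67 ± 0.28 (limma adjusted p = 6.23e-07). Pnck alone took 2.96%, 2.52% and 2.48% of all RNA-seq reads, and Gtf2i, a general transcription factor, took 1.41%, 1.12% and 1.29%. Arhgef28, a guanine nucleotide exchange factor, varied between the RNA-seq libraries, at 1.60%, 0.55% and 2.62% of reads. Whether RNA-seq reads were counted by strand, and how reads of repeated sequence were placed, is not given in the sources used here, so reads of overlapping or similar sequence cannot be told apart from these genes' own. Ubb (polyubiquitin), Actg1 (gamma-actin) and Kif5a (a neuronal kinesin) are abundant mRNAs of neurons or of all cells. Kif5a had 38, 17 and 106 CLIP reads against 9782, 10807 and 14503 RNA reads, and its largest position lay in the 3′ UTR. All 10 lay below 0 in all 3 methamphetamine pools.

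The reach of CLIP rose with RNA level. When all 18208 genes of the RNA-seq table were divided into 10 equal bands of RNA level, 4.10% of the genes of the lowest band and 69.3% of those of the highest were among the 4408. The 5 genes with the most RNA that missed the minimum were Pappa, Angel2, Gm20604, Gon7 and Cmc4. Pappa, a secreted metalloprotease, took 3.11%, 2.12% and 4.55% of RNA-seq reads and had 19, 5 and 28 CLIP reads. Cmc4 had 0 CLIP reads in all 3 libraries against 21094, 27342 and 24512 RNA reads, which allows up to 2.85, 7.09 and 1.83 CPM of CLIP by a limit of 3 reads per library, for counting error only. Gon7 and Gm20604 overlap on the same strand and had nearly the same RNA reads (38141 and 38286 in replicate 1), so their levels are uncertain. At the minimum itself, Ubb (10, 14 and 31 CLIP reads), Tram2 (20, 10 and 34) and Itm2b (10, 15 and 26) were just inside, with differences of -7.52, -6.11 and -4.98. Just outside were Apbb1 (42, 9 and 69) and Zc3h7a (9, 9 and 24), at -6.17 and -5.74.

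Lists of genes by function were set beside the median difference of all 4408 genes, 0.12, and the lists were drawn up with earlier results of these data known. Among the 3186 genes not held above RNA by the filter the median was -0.71. Of these, 19.4% were called higher and 46.3% lower, against 38.3% and 33.5% of all 4408. These values apply to every list and marker set below, where at most 3 genes per list were held above RNA by the filter. RNA level is part of the difference, and list medians are not matched for it. Some genes are in more than 1 list (Homer1, Nefl and Rbfox3, for example). Of 22 glutamate and GABA receptor genes all 22 were among the 4408, with 7 called higher, 3 lower (against 38.3% and 33.5% of all genes described) and a median of 0.28. Of the 7, 2 were held above RNA by the filter: Grik1, a kainate receptor (3.70 ± 0.40), and Gabra2, a GABA-A receptor subunit (3.20 ± 0.37). Grin1, the obligatory NMDA receptor subunit, was called lower at -2.27 ± 0.23, and Gria1, Gria2, Grm5, Grin2a and Grin2b were not called, with values from -0.35 to 0.36. The list's median turned negative with exon positions only (-0.39), with at least 30 CLIP reads per library (-0.61) and with the length trend removed (-1.24), and it rose to 1.17 with TMM scaling.

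Of 20 voltage-gated ion channel genes 19 were described, 4 higher and 8 lower (5 without replicate 3), against 38.3% and 33.5% of all genes described. The list's median of -0.37 became 0.12 without centring, 0.52 with TMM scaling, 0.12 without the 1% of positions with the most reads and -2.07 with exon positions only. Kcnh7 was highest at 5.85 ± 0.44, but 78.2% of its CLIP reads lay at 1 intronic position, and without the 1% of positions with the most reads its difference was 0.87 (adjusted p = 0.159). Kcnma1, the large-conductance calcium-activated potassium channel, had 638, 393 and 833 CLIP reads over 39 positions and stood at 2.36 ± 0.29. Scn2a, a neuronal sodium channel, was lowest at -2.76 ± 0.31. Cacna2d2, an auxiliary calcium channel subunit, had 36, 17 and 47 CLIP reads against 500, 708 and 519 RNA reads and stood at -2.50 ± 0.27.

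All 26 synaptic adhesion and scaffold genes were described, with 13 called higher, 8 lower (against 38.3% and 33.5% of all genes described) and a median of 0.70, which turned negative with exon positions only (-1.03), with the length trend removed (-1.54) and with genes that overlap no other gene (-1.75). Lrrtm4, a leucine-rich postsynaptic adhesion protein, was highest at 4.74 ± 0.36 but held above RNA by the filter. Ptprd, a presynaptic receptor phosphatase, stood at 4.13 ± 0.46, with pools at 5.57, 2.67 and 4.15. Csmd1 had 3066, 915 and 4678 CLIP reads and stood at 3.66 ± 0.20. The neuroligins split by member: Nlgn1 was called higher at 2.33, and Nlgn2 and Nlgn3 lower at -1.85 and -3.25. The same was seen in the postsynaptic Dlgap family, with Dlgap1 (0.80) and Dlgap2 (4.07) higher, Dlgap4 (0.61) not called and Dlgap3 (-2.96) lower. In the neurexins, the presynaptic partners of neuroligins, Nrxn3 was higher at 1.36 and Nrxn2 lower at -1.51. In each of these families the members called higher were longer and had less RNA than those called lower. Nlgn1 spans 906 kb with an RNA level of 5.76 log2 CPM. Nlgn2 and Nlgn3 span 14.7 and 26.8 kb, at 8.57 and 7.61. Whether the splits go beyond length and RNA level was not tested. Under TMM scaling 16 of the 26 were called higher and 6 lower.

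Genes of the vesicle release machinery were abundant, with a median RNA level of 8.59 log2 CPM. The highest RNA band, from 7.51 log2 CPM, had a median difference of -2.32 among genes not held above RNA by the filter. Of 20 described genes of the list 2 were higher and 14 lower, with a median of -1.90 (-1.01 with TMM scaling), which was not below that of the band. Without replicate 1 or without replicate 3, 1 was called higher. Slc32a1, the vesicular GABA transporter, was lowest at -4.92 ± 0.45, with 14, 15 and 88 CLIP reads against 2358, 2631 and 3009 RNA reads. Nsf, the ATPase that takes apart SNARE complexes, stood at -4.09 ± 0.26 and complexin Cplx1 at -4.05 ± 0.50. Snap25, a plasma membrane SNARE protein, had 418, 216 and 329 CLIP reads against 4656, 6638 and 3950 RNA reads, a difference of -2.31 ± 0.35. The active-zone scaffold Rims1 stood at 1.55 ± 0.24, with 70.2% of its CLIP reads at 1 intronic position, and at 0.35 (adjusted p = 0.360) without the 1% of positions with the most reads. It turned negative, at -0.33, with the length trend removed. Rab3a, a vesicle GTPase, had all its CLIP reads at 1 intronic position and stood at 0.77 ± 0.29.

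Of 25 genes of striatal projection neurons, the main cell type of this tissue, 19 were described, 4 higher (2 without replicate 1) and 10 lower, with a median of -1.05. The median became -0.16 with TMM scaling, -0.56 without centring, -1.86 with at least 30 CLIP reads per library and -2.09 with exon positions only. The list's median RNA level was 8.96 log2 CPM, in the highest RNA band, where genes not held above RNA by the filter had a median difference of -2.32. Penk, the enkephalin precursor of indirect-pathway neurons, had 23, 18 and 47 CLIP reads against 2520, 3446 and 2438 RNA reads and stood at -4.96 ± 0.29. The position of Penk printed above held 47.7% of these reads. Ppp1r1b, which encodes the dopamine signalling protein DARPP-32, stood at -4.30 ± 0.25, and Adcy5, the striatal adenylyl cyclase, at -2.62 ± 0.24. The receptor genes Adora2a and Drd2 stood at -1.94 ± 0.29 and -1.93 ± 0.31. Gng7, a G-protein gamma subunit coupled to these receptors, had CLIP reads at 276 positions (495, 168 and 846 reads), none with more than 4.24% of them, and stood at -1.31 ± 0.19, which became -0.42 (adjusted p = 0.153) with TMM scaling. Drd1 (11, 5 and 39 CLIP reads, with 627, 726 and 644 RNA reads), Pdyn (2, 4 and 10, with 518, 590 and 389), Tac1, Gpr6 and Six3 did not reach the CLIP minimum. The 4 called higher were the transcription factors Isl1 (2.53, held above RNA by the filter) and Foxp1 (1.03), the ryanodine receptor Ryr3 (1.30) and the G-protein regulator Rgs9 (0.89).

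Of 38 genes of hnRNPs and splicing regulators 27 were described, 9 higher and 12 lower (7 without replicate 1). The shares were 38.3% and 33.5% over all genes described, and 19.4% and 46.3% over those not held above RNA by the filter. The list's median of -0.28 became 0.21 without centring, 0.61 with TMM scaling, 0.03 with at least 10 RNA reads per library, 0.02 without the 1% of positions with the most reads and -0.88 with exon positions only. Srrm4, a neuronal splicing activator of microexons, was highest at 5.41 ± 0.23, with 99.4% of its reads at 1 intronic position. Rbfox1, a neuronal splicing factor, had 3382, 888 and 3366 CLIP reads over 688 positions, 99.2% of them in introns, against 658, 968 and 833 RNA reads, a difference of 3.11 ± 0.23. Celf2 stood at 3.06 ± 0.22, and its relative Celf1 was lowest at -4.43 ± 0.38. Of the paralogs Nova1 and Nova2, which regulate neuronal splicing, Nova2 was called lower at -2.69 ± 0.27, and Nova1, held above RNA by the filter, stood at 1.97 ± 0.40. Within the hnRNP H family Hnrnph1 had 193, 41 and 281 CLIP reads against 133, 157 and 107 RNA reads and stood at 1.69 ± 0.32 (limma adjusted p = 0.00149). Of these reads 89.7% came from the Hnrnph1 position printed above, which holds no guanine run of 3 or more. Hnrnph3, held above RNA by the filter, stood at 2.32 ± 0.28, with CLIP reads at 19 positions, and Hnrnpf was not called at -0.47 ± 0.30 (adjusted p = 0.184). Hnrnph2 had 7, 0 and 37 CLIP reads and missed the minimum. Of 16 genes of other guanine-run binders and RNA helicases 11 were described, 5 higher and 2 lower (1 without replicate 1 or replicate 3), with a median of 0.72 that became 0.16 with at least 30 CLIP reads per library, 1.61 with TMM scaling and 2.46 with exon positions only. Tardbp and Dhx9 led, followed by the helicase Ddx6 (2.55 ± 0.37), while the translation helicase Eif4a2 was lowest at -4.22 ± 0.25.

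Abundant housekeeping mRNAs had the lowest list median, but they were listed for abundance, and RNA level is part of the difference. The list's median RNA level was 9.50 log2 CPM. Short genes of the highest RNA band had a median difference of -2.91 among genes not held above RNA by the filter. Of 30 genes of the cytoskeleton, glycolysis and other abundant proteins 21 were described, 0 higher and 20 lower, with a median of -3.89. Under TMM scaling 1 was called higher and 17 lower. Actb (beta-actin) had 22, 38 and 62 CLIP reads against 5340, 8963 and 6142 RNA reads and stood at -5.77 ± 0.46. Pkm (pyruvate kinase) stood at -6.14 ± 0.30 and Gapdh at -3.58 ± 0.30. Mapt, which encodes tau, was the exception, with 432, 130 and 660 CLIP reads over 72 positions and a difference of -0.20 ± 0.21 (adjusted p = 0.414). It was called lower with exon positions only (-2.69), without the 1% of positions with the most reads (-1.69) and with at least 30 CLIP reads per library (-1.01), and higher with TMM scaling (0.69, adjusted p = 0.0404). Of 41 ribosomal protein genes only 4 reached the CLIP minimum (Rpl3, Rpl32, Rpl13a and Rpl38), all called lower with a median of -2.99 (-1.14 with exon positions only). In Rpl3 94.6% of the CLIP reads lay at 1 intronic position that overlaps the snoRNA gene Snord83b on the same strand, so the 2 cannot be told apart. Rpl32 had all its CLIP reads at 1 intronic position. Of 40 nuclear genes of oxidative phosphorylation 8 reached the CLIP minimum, 1 higher and 6 lower, with a median of -2.19. That median became -0.30 with exon positions only, 0.30 with at least 30 CLIP reads per library and -1.30 with TMM scaling. The highest, Ndufv1 at 1.11 ± 0.38, had its reads at 1 position and lost its call without replicate 1 (0.93, adjusted p = 0.155) or replicate 3 (0.74, adjusted p = 0.238). Of 20 immediate early genes 5 did, with 4 lower and a median of -2.65 (-1.76 with TMM scaling). Egr1 stood at -3.60 ± 0.27, and Npas4 was not called at -1.01 ± 0.44. Without replicate 2 Npas4 was called lower (-1.60, limma adjusted p = 0.00487). With all replicates it was also called lower by edgeR (-1.08, adjusted p = 0.044) and by DESeq2 (-1.08, adjusted p = 0.036).

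Markers of cell types were also compared. Of 10 neuron markers 8 were described, 1 higher and 6 lower (median -1.98, and -1.09 with TMM scaling). The nuclear splicing factor Rbfox3, which is the NeuN antigen, was the higher one at 1.61 ± 0.26, with 1478, 400 and 2602 CLIP reads at 159 positions, and at -0.019 with the length trend removed, and the neurofilament gene Nefl was lowest at -4.50 ± 0.36. Astrocyte markers gave 6 of 12, 0 higher and 6 lower (median -2.59), and oligodendrocyte markers 7 of 12, 0 higher and 6 lower (median -2.58), with medians of -1.71 and -1.69 under TMM scaling. The astrocyte connexin gene Gja1 lost its call without replicate 1 (adjusted p = 0.0659) and stood at 0.052 (adjusted p = 0.907) with exon positions only. Mbp stood at -4.98 ± 0.34, with 184, 90 and 391 CLIP reads against 11538, 18414 and 32589 RNA reads. Only 3 of 12 microglia markers reached the minimum, and none was called, though C1qb was called lower without replicate 2 (-1.97, adjusted p = 0.00174) and with the replicate block (-1.30, adjusted p = 0.0426). Of 4 endothelial markers that did, 3 were called higher and 3 were held above RNA by the filter. Cortical excitatory neuron markers gave 6 of 12, 3 higher and 2 lower. Mef2c, at 3.98 ± 0.33, had 97.4% of its reads at 1 position and fell to -0.61 (adjusted p = 0.148) without the 1% of positions with the most reads. None of 12 choroid plexus markers reached the minimum.

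**Figure D5:**
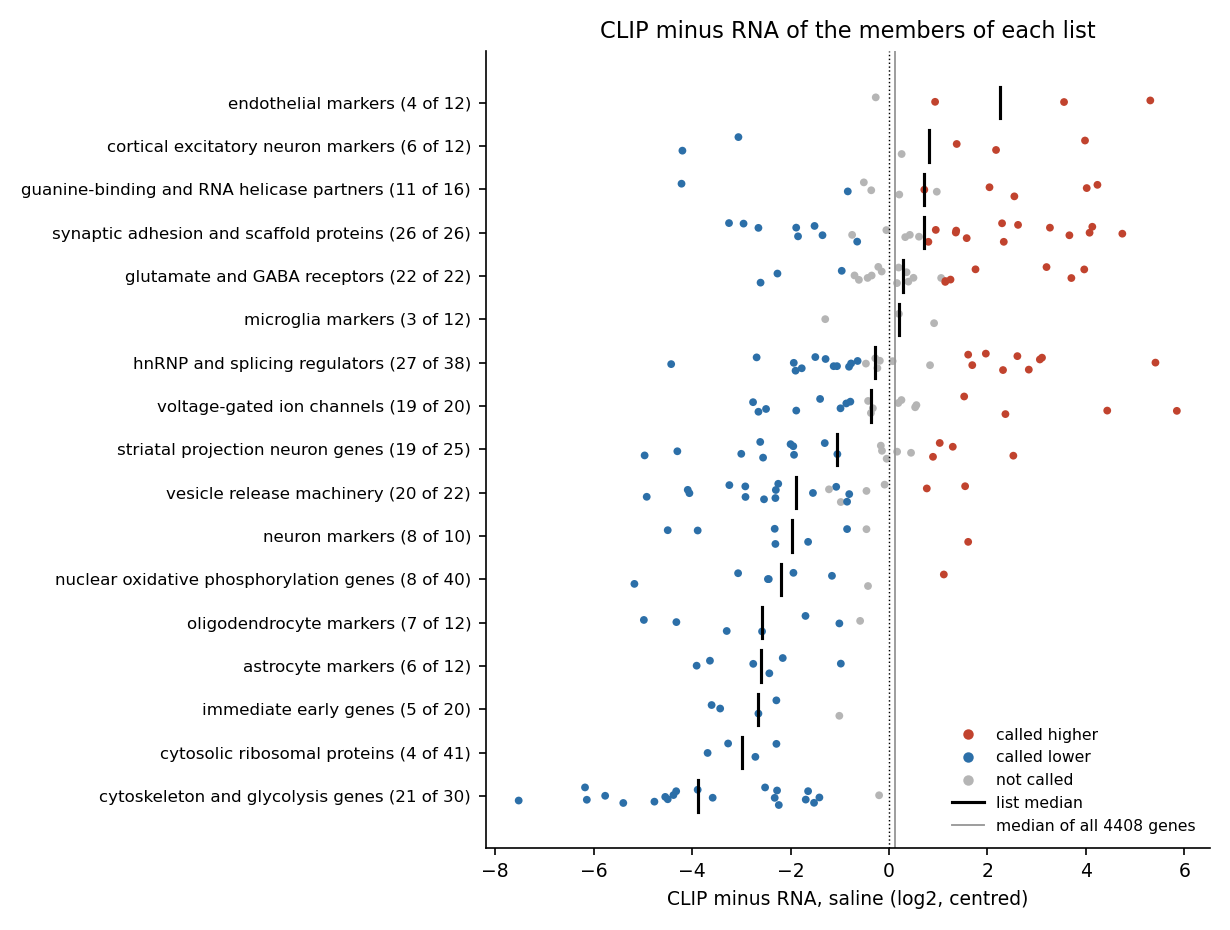
Each point is 1 described gene of a list, at its CLIP minus RNA (log2, centred) after saline, coloured by call. Black lines mark list medians, the grey line the median of all 4408 genes (0.12), and the numbers beside each list give genes described of genes listed. The median of genes not held above RNA by the filter was -0.71. Cytoskeleton and glycolysis genes lie lowest (median -3.89), and the synaptic adhesion genes spread from -3.25 to 4.74.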

How the data were processed

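hnRNP H CLIP-seq and RNA-seq of 3 saline and 3 methamphetamine pools were used. CLIP counts were deposited as whole numbers of reads for peak positions of 100 bases. The table's 172271 lines hold 147438 distinct positions, each used once. RNA-seq levels were deposited by the authors as log2 CPM, on the scale that voom gives, as the values show. In each library 100% of them lay within 0.01 of whole reads once inverted with an offset of 0.5 reads. Trimmomatic, UMI-tools, STAR, bedtools, Subread, featureCounts, limma, edgeR and mm10 are named in the submitters' processing notes, without versions or roles. Whether molecular identifiers were used to count molecules is not stated there, so limits for counts of 0 cover counting error only.

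CLIP counts were summed per Ensembl identifier. Of 16910 identifiers, 17 had no symbol, and 18 symbols with several identifiers were left out. The 13202 shared genes were fitted with limma 3.58.1 (lmFit, eBayes with trend) in R 4.3.3 on log2 CPM (CLIP offset 0.5 reads), with Benjamini-Hochberg adjustment at 0.05. The filter was 10 CLIP reads in each saline library, and no filter was set on RNA. The fit was tested on simulated data with 200 of 13202 genes changed. A difference of 1 was called in 0% of changed genes, of 2 in 4.5% and of 4 in 88%. A gene that was not called is therefore not shown to lie at 0. In the data 18.8% of genes were called higher and 50.3% lower, so the adjusted p-value cut was less strict there and the simulated rates do not carry over. Depth was 423057 to 1635338 reads per saline CLIP library and 3935160 to 4698135 per saline RNA-seq library, and the smallest counts set the precision. Regions and sequences are from GENCODE M21 (GRCm38, mm10), with 1-based coordinates, and the region is that at the position's midpoint.

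Same-numbered CLIP and RNA-seq libraries come from the same pool of 4 mice, per the labels' protocols, so the numbers pair the samples. Deviations from the group means correlated at -0.033, 0.014 and 0.031 in pairs 1, 2 and 3. Named genes are the 10 highest called genes with at least 3 positions and none over 50% of reads, the 5 highest with 1 such position, the 10 lowest, the highest and lowest of each list, fixed genes, 3 on each side of the minimum and the 5 with the most RNA that missed it, and a few of them are not reported here. Mitochondrially encoded genes, histones and long noncoding RNAs were listed too, but none of their symbols is in the RNA-seq table, so Malat1 and Meg3 are not analysed here. The genes, lists and tests were chosen with earlier results of these data known. Alternatives covered the offset, filters, centring, positions, test (edgeR 4.0.16 and DESeq2 1.42.0 on the counts and recovered reads), weights, block, length and each replicate left out. Sequences, genes free of overlap, genes not held above RNA by the filter, and the block without replicate 2 were added after seeing the data.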

Additional observations from a re-analysis of the deposited data

How the results depend on the processing

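Of 68 values of the main results under alternatives, 45 stayed within 1.5 times the count or within the spread over pools. The 23 that moved follow. Genes called higher and lower numbered 829 and 755 with at least 30 CLIP reads per library, 470 and 421 with exon positions only, 583 and 506 among genes that overlap no other gene, each with fewer genes tested, and 864 lower with TMM scaling. Genes not held above RNA by the filter gave 619 higher. The correlation of CLIP and RNA was 0.182 with 5 CLIP reads, 0.018 with 30, 0.164 with at least 10 RNA reads, 0.297 without the top 1% of positions, -0.021 with exon positions only, 0.149 with the length trend removed, 0.096 without overlapping genes and 0.198 among genes not held above RNA. The spread (SD) of the difference was 2.22 with at least 10 RNA reads, 2.41 without the top 1% of positions, 3.01 with exon positions only, 2.73 with the length trend removed, 2.96 without overlapping genes and 1.89 among genes not held above RNA. The cause was not tested. Leaving out 1 replicate gave 1399 to 1767 genes higher, 1138 to 1616 lower, a correlation of 0.105 to 0.127 and an SD of 2.79 to 2.89, where 2.89 is the value without replicate 2. With the replicate block, 1658 genes were called higher and 1443 lower, and 1764 and 1618 with the block and without replicate 2. Of the genes named, the block changed the call of C1qb alone (-1.30, adjusted p = 0.0426 against 0.066), and with the block and without replicate 2 that of C1qb and Npas4. edgeR called 1728 higher and 1455 lower, and DESeq2 1717 and 1484. Of 1294 values of named genes 1260 kept their side and call, 18 gained a call, 11 lost it and 5 reversed: Mapt with TMM scaling (0.69), Mef2c without the top 1% of positions (-0.61), Gja1 with exon positions only (0.052), and Rbfox3 (-0.019) and Rims1 (-0.33) with the length trend removed. Of 1068 medians and counts of gene lists 844 stayed within the same limits and 224 moved, and many of these values stand beside their list above. Genes of few reads in saline replicate 2, the shallowest, are the least certain.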
